A study of Mus musculus with 18 samples.

Results

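The genes described here are those of the classical and nonclassical MHC class II molecules and their transcriptional regulator. They comprise Ciita, the classical chains H2-Aa, H2-Ab1 and H2-Eb1, the invariant chain gene Cd74, the H2-DM genes H2-DMa, H2-DMb1 and H2-DMb2, and the H2-O genes H2-Oa and H2-Ob. They were chosen by name, by matching each symbol to an Ensembl gene in the table of counts. All 10 symbols were found among the 54532 genes of that table, and all 10 were among the 16257 genes with enough counts to be tested.

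RNA was sequenced from whole jejunum of C57BL/6 mice aged 8 to 12 weeks, 16 h after 1 dose of 15 Gy to the whole abdomen. The FLASH group (7 libraries) received the dose at an ultra-high rate, the CONV group (5 libraries) received it at a conventional rate, and the control group (6 libraries) was not irradiated. C57BL/6 is an inbred laboratory strain, and the labels give the groups no other allele or agent. Whether the libraries are from separate mice is not in the labels, so the p-values reflect only variation among libraries, which may be technical.

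MHC class II molecules are pairs of an alpha and a beta chain that display peptides from endocytosed protein to CD4 T cells. Dendritic cells, macrophages and B cells carry them, and the epithelium of the small intestine also makes them, under the influence of interferon-gamma and the microbiota. The promoters of these genes share an X box and a Y box, bound by the RFX, CREB and NF-Y proteins; CIITA binds no DNA itself but docks onto those proteins and switches transcription on. The invariant chain escorts newly made class II molecules to endosomes, H2-DM exchanges the remaining fragment of that chain for peptide, and H2-O, which is made mainly by B cells, restrains H2-DM. C57BL/6 mice have no functional I-E alpha chain, so their class II molecule at the cell surface is made from H2-Aa and H2-Ab1, while H2-Eb1 is still transcribed.

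The promoters are shown because CIITA acts through the letters they share. RefSeq promoter sequence on GRCm38.p6, from 250 bases before to 50 bases after each start, was at hand for 7 of the 10 genes. Below, each stretch of 65 bases runs 5′ to 3′ on the strand of its gene, and capitals mark the Y box ATTGG, the X box letters AACNNATGATG or the cyclic AMP response element TGACGTCA.
H2-DMb1, chr17:34153080-34153144, plus strand: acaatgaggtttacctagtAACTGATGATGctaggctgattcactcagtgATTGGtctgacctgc
H2-DMb2, chr17:34145109-34145173, plus strand: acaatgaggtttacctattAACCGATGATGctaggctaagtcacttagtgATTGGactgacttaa
H2-Eb1, chr17:34305758-34305822, plus strand: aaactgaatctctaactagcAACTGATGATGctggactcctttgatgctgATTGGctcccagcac
H2-Ob, chr17:34238798-34238862, plus strand: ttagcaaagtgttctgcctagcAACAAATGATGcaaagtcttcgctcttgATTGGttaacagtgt
H2-Aa, chr17:34287857-34287921, minus strand: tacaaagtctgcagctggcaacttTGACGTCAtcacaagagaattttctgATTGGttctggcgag
H2-Oa, chr17:34092286-34092350, plus strand: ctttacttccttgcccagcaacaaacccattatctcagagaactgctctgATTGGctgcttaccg

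The 7 genes have 8 promoter entries, and a Y box was found in 7 of the 8, in 1 of the 2 entries of H2-DMa and in the entry of each other gene, beside 37.4% of all 32851 promoters of the same length, searching both strands. The X box letters were read from H2-DMb1, H2-DMb2, H2-Eb1 and H2-Ob, as the 11 bases before the Y box in which these 4 agree best, with N where they differ. Of the 32851 promoters, those 4 alone hold the letters 10 to 30 bases before a Y box (0.0122%), which describes how rare the pair is and tests nothing. H2-Aa did not hold these exact letters, and before its Y box it held TGACGTCA, which 1.79% of all promoters hold. Lacking the exact letters does not show that H2-Aa, H2-Oa or H2-DMa has no X box, because the letters were read from 4 other promoters. H2-DMb1 and H2-DMb2 are near-copies: 13.7% of the 100-base windows of the H2-DMb1 transcript occur unchanged in another gene, H2-DMb2, so reads from those stretches cannot be placed, and how they were shared out is not given in the sources used here. No window of that length from the other 8 transcripts occurred in another gene.

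Per kilobase of transcript, Cd74 had the highest level, at 1170 ± 384 CPM per kb in FLASH (SD, n = 7), 722 ± 341 in CONV (n = 5) and 1880 ± 527 in controls (n = 6). CPM are estimated counts after every library has been set to the same size. The classical chains H2-Aa and H2-Ab1 followed, with 902 ± 386 and 871 ± 348 CPM per kb in controls, which differ by less than their spread. H2-Eb1 stood at 365 ± 110 CPM per kb in controls, H2-DMb1 at 92.7 ± 45.5 and H2-DMa at 57.4 ± 21.9. Ciita, a regulator needed in small amounts, had 1.03 ± 0.521 CPM per kb in FLASH, 1.73 ± 0.653 in CONV and 7.76 ± 2.37 in controls. In controls its level overlapped that of H2-DMb2 (6.45 ± 6.76 CPM per kb), and H2-Oa (2.24 ± 1.91) and H2-Ob (1.89 ± 2.28) were lowest, with spreads as large as their means or nearly so.

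Most of these genes were expressed at a lower level in FLASH than in controls, and all were in CONV. Against controls, 9 of the 10 genes fell in FLASH, where 37.7% of all tested genes changed and 21% fell. All 10 fell in CONV, where 22.2% of all tested genes changed and 12% fell. The median log2 fold change of the 10 was -1.75 in FLASH, beside -0.07 over all tested genes, and -2 in CONV, beside -0.04. No library of the irradiated group reached the lowest control for 5 of the 10 genes in FLASH (6.86% of all tested genes were lower in that way) and for 7 of the 10 in CONV (4.95%). Both comparisons use the same 6 control libraries. In RNA from a whole tissue, fewer cells that express a gene and less of its RNA per cell cannot be told apart.

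**Figure D1:**
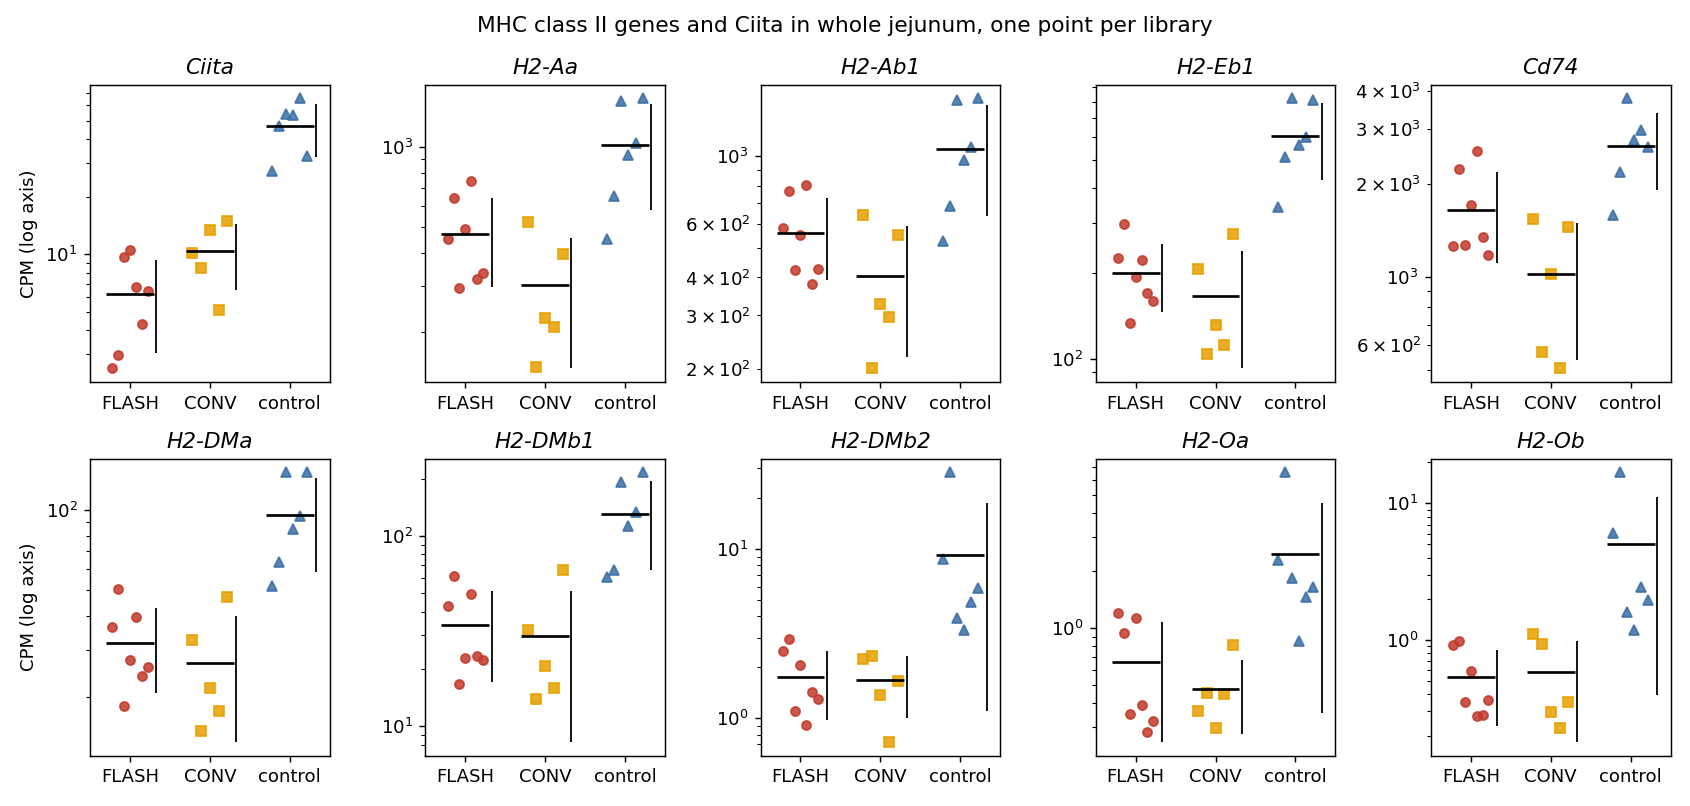
Level of each gene in CPM (log axis) in every FLASH, CONV and control library. Points are libraries, horizontal bars are group means and vertical lines span 1 SD either side; Ciita shows a clear gap between the irradiated and control libraries, while H2-Aa and H2-Ab1 overlap and H2-DMb2, H2-Oa and H2-Ob have 1 control far above the rest.

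Ciita, on chromosome 16 (mm10, 10480059 to 10528418, plus strand), had a lowest, median and highest level of 2.53, 6.4 and 10.5 CPM over the 7 FLASH libraries. In CONV libraries 2, 3, 5, 6 and 7 it had 10.2, 8.44, 13.4, 5.1 and 15.0 CPM, and in the 6 controls its lowest, median and highest were 27.2, 50.1 and 65.3 CPM. Every irradiated library lay below every control, whereas FLASH and CONV overlapped. On the log2 scale its change against controls was -2.92 ± 0.34 in FLASH (SE; adjusted p = 4.72e-06), 7.56-fold lower, and -2.16 ± 0.37 in CONV (adjusted p = 0.000689), 4.47-fold lower. These and all adjusted p-values below are from edgeR's quasi-likelihood test with Benjamini-Hochberg adjustment over all 16257 genes, unless another tool is named, and the threshold was 0.05.

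The classical chain H2-Aa, which pairs with H2-Ab1, ranged over 295, 452 and 748 CPM in FLASH (lowest, median, highest). It had 524, 148, 227, 210 and 394 CPM in CONV libraries 2, 3, 5, 6 and 7, and 452, 988 and 1530 CPM in controls (lowest, median, highest). Both irradiated groups overlapped the controls, through control 1 alone in the case of CONV. H2-Aa fell by 1.12 ± 0.33 on the log2 scale in FLASH (adjusted p = 0.0118) and by 1.76 ± 0.37 in CONV (adjusted p = 0.00327). Its partner H2-Ab1 averaged 562 ± 169 CPM in FLASH (SD, n = 7), 404 ± 185 CPM in CONV (n = 5) and 1060 ± 422 CPM in controls (n = 6). H2-Ab1 fell by 0.91 ± 0.29 in FLASH (adjusted p = 0.0202) and by 1.39 ± 0.33 in CONV (adjusted p = 0.00693). The FLASH call of H2-Ab1 was lost with limma-trend on the authors' log2 values (-0.83, adjusted p = 0.0545) and without control 3 (adjusted p = 0.0541) or FLASH 4 (adjusted p = 0.0508).

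H2-Eb1, a beta chain without its partner in this strain, had 134, 194 and 297 CPM in FLASH, given as lowest, median and highest. In CONV libraries 2, 3, 5, 6 and 7 it had 207, 104, 132, 112 and 275 CPM, and in controls 341, 584 and 822 CPM. Unlike the other classical chains, it did not overlap between either irradiated group and the controls. H2-Eb1 fell by 1.60 ± 0.25 on the log2 scale in FLASH (adjusted p = 0.000101) and by 1.87 ± 0.29 in CONV (adjusted p = 0.00028).

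Cd74, which encodes the invariant chain and lies on chromosome 18 (mm10, 60803848 to 60812652, plus strand), was the 1 gene that did not pass in FLASH. It had 1180, 1350 and 2550 CPM in FLASH (lowest, median, highest), 1540, 571, 1020, 505 and 1450 CPM in CONV libraries 2, 3, 5, 6 and 7, and 1580, 2710 and 3780 CPM in controls (lowest, median, highest). FLASH libraries 2, 5 and 6 reached into the control range, while every CONV library was below it. The log2 fold change was -0.69 ± 0.28 in FLASH (95% interval -1.27 to -0.10, adjusted p = 0.0599), and Cd74 fell by 1.38 ± 0.31 in CONV (adjusted p = 0.00524). The FLASH value lay close to the threshold and passed it without FLASH 6 (adjusted p = 0.0324), FLASH 2 (adjusted p = 0.0496) or CONV 6 (adjusted p = 0.0423), and with the offset for length and GC content described below (-0.82, adjusted p = 0.0209).

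H2-DMa and H2-DMb1, the chains of the peptide exchanger, also fell in both irradiated groups. H2-DMa averaged 31.9 ± 11.1 CPM in FLASH (SD, n = 7), 26.9 ± 13.3 CPM in CONV (n = 5) and 95.2 ± 36.4 CPM in controls (n = 6), and fell by 1.58 ± 0.30 on the log2 scale in FLASH (adjusted p = 0.00047) and by 1.82 ± 0.34 in CONV (adjusted p = 0.00122). No irradiated library reached a control. H2-DMb1 averaged 34.1 ± 17 CPM in FLASH, 29.6 ± 21.4 CPM in CONV and 130 ± 63.8 CPM in controls, and fell by 1.93 ± 0.41 in FLASH (adjusted p = 0.00119) and by 2.13 ± 0.46 in CONV (adjusted p = 0.0039). Its groups met only at the edges, where FLASH 2 (61.2 CPM) and CONV 7 (65.8 CPM) passed control 1 (60.5 CPM). In the annotation, H2-DMa (chromosome 17, 34119541 to 34139101, plus strand) overlaps Brd2 on the other strand, whose log2 fold changes were 0.27 ± 0.13 in FLASH and 0.05 ± 0.14 in CONV, neither past the threshold. The library kit keeps strand, but whether the counting used it is not given in the sources used here.

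The remaining genes, H2-DMb2, H2-Oa and H2-Ob, were scarce, and their control values were led by 1 library. H2-Ob, the beta chain of the H2-DM inhibitor, had 0.276, 0.364 and 0.982 CPM in FLASH (lowest, median, highest), 1.1, 0.942, 0.298, 0.226 and 0.355 CPM in CONV libraries 2, 3, 5, 6 and 7, and 1.19, 2.21 and 16.9 CPM in controls (lowest, median, highest). All irradiated libraries lay below all controls. Its log2 fold change was -3.22 ± 0.61 in FLASH (adjusted p = 0.000499) and -3.11 ± 0.69 in CONV (adjusted p = 0.00472). H2-DMb2 fell by 2.40 ± 0.47 in FLASH (adjusted p = 0.000637) and by 2.46 ± 0.53 in CONV (adjusted p = 0.00389), with no overlap. H2-Oa, the alpha chain of the inhibitor, fell by 1.89 ± 0.47 in FLASH (adjusted p = 0.00391) and by 2.34 ± 0.54 in CONV (adjusted p = 0.0057), and overlapped controls in FLASH.

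Control 2 held the highest value of all 3 genes, 28.5 CPM of H2-DMb2, 6.59 CPM of H2-Oa and 16.9 CPM of H2-Ob, and control 1 the next highest, 8.69, 2.28 and 6.07 CPM. The same libraries had the highest summed level of 10 B cell markers, 258 CPM in control 2 and 66.3 CPM in control 1, against 27 to 33.2 CPM in the other 4 controls. Without control 2 the log2 fold change of H2-Ob was -2.25 in FLASH and -2.18 in CONV, that of H2-DMb2 was -1.57 and -1.67, and that of H2-Oa was -1.26 and -1.74, and all kept their calls. With control 1 left out as well, a choice made after seeing the data, H2-Ob stood at -1.72 in FLASH (adjusted p = 0.0105) and -1.64 in CONV (adjusted p = 0.0493). H2-DMb2 then stood at -1.34 in FLASH and -1.44 in CONV, both still past the threshold. H2-Oa kept its call in CONV (-1.60, adjusted p = 0.0435) and lost it in FLASH (-1.11, adjusted p = 0.065).

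**Figure D2:**
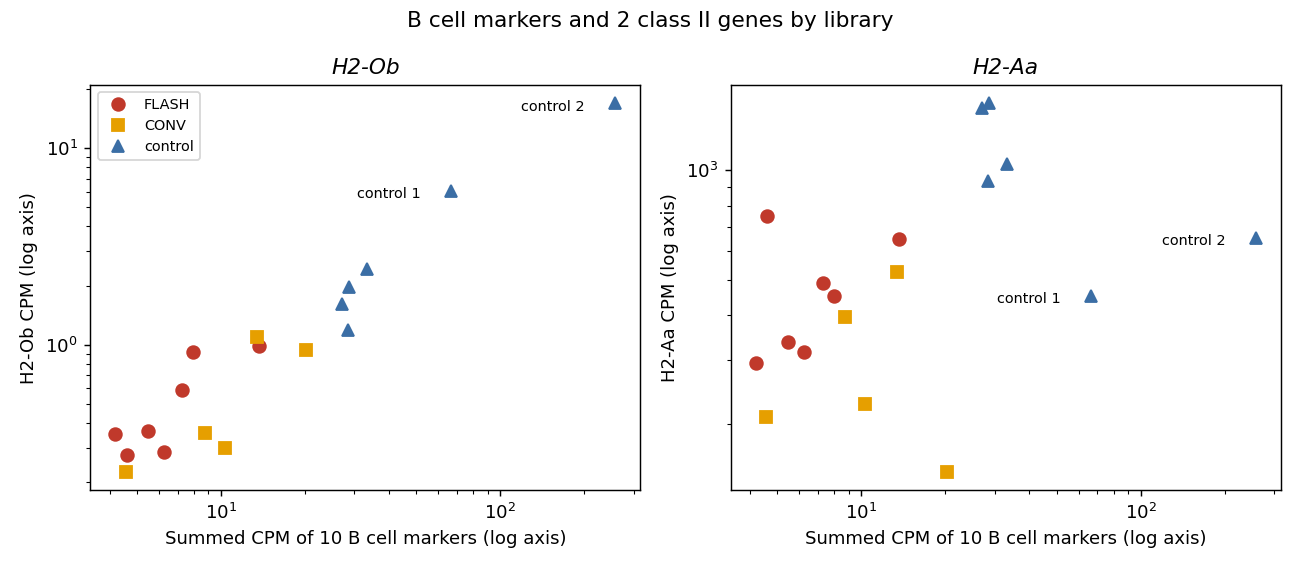
H2-Ob (left) and H2-Aa (right) in CPM against the summed CPM of 10 B cell markers, 1 point per library in FLASH, CONV and control, all axes logarithmic. H2-Ob is highest in control 2 and control 1, the libraries with most B cell marker signal, whereas H2-Aa is lowest among controls in those same libraries.

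Within groups, the genes varied as separate sets. The sets were drawn from these same values, so the split is a description and tests nothing. With each group's mean removed, log2 CPM of H2-Aa, H2-Ab1, H2-Eb1, Cd74, H2-DMa and H2-DMb1 had Pearson correlations of 0.78 to 0.99 over the 18 libraries (15 pairs). H2-DMb2, H2-Oa and H2-Ob had 0.74 to 0.95 among themselves (3 pairs) and -0.24 to 0.21 with the first 6 genes. Ciita went with neither set, at -0.26 to 0.42 with the other 9 genes, the highest being Cd74. These values are descriptions over libraries that share depth and tissue composition, and H2-DMb1 and H2-DMb2 also share sequence. Levels gave an example: control 1 had the lowest H2-Aa of the controls (452 CPM) and control 6 the highest (1530 CPM), whereas Ciita was 27.2 CPM in control 1 and 32.7 CPM in control 6, the lowest pair of controls. Control 6 also had the steepest trend with transcript length among the controls (slope -0.412, described below). The Ciita transcript has 6007 bases and that of H2-Aa 1128. Neither the correlations nor these levels were corrected for length, and its part in the split was not tested.

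Between the dose rates, none of the 10 genes passed the threshold in FLASH against CONV, where 19.8% of all tested genes did. At an unadjusted p under 0.05 there were 2, Ciita and Cd74, and DESeq2, limma-voom and limma-trend also called 0. For Ciita the log2 difference was -0.76 ± 0.34 (95% interval -1.47 to -0.05, adjusted p = 0.12), lower in FLASH. Cd74 had 0.70 ± 0.30 (95% interval 0.07 to 1.33, adjusted p = 0.105) and H2-Aa 0.64 ± 0.35 (95% interval -0.09 to 1.37, adjusted p = 0.202), both higher in FLASH. For H2-Eb1 the interval ran from -0.29 to 0.83, for H2-DMa from -0.41 to 0.90 and for H2-Ob from -1.50 to 1.28, so differences within these ranges cannot be told from 0 at this number of libraries.

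These differences between dose rates moved when length and GC content were corrected for together. The Ciita transcript, at 6007 bases, is the longest of the set, and the others run from 1088 to 2670 bases. When log2 expression was regressed on transcript length, the slope averaged 0.04 ± 0.20 in FLASH (SD, n = 7), -0.18 ± 0.21 in CONV (n = 5) and 0.10 ± 0.28 in controls (n = 6), and the libraries of the 3 groups overlapped. With an offset for length and GC content in each library, 3 genes passed in FLASH against CONV: Ciita at -1.12 (adjusted p = 0.0107), H2-Aa at 0.90 (adjusted p = 0.0394) and Cd74 at 0.88 (adjusted p = 0.038). Leaving out instead the 3 libraries of steepest trend, control 6, CONV 6 and FLASH 1, gave 0 calls, with Ciita at -0.79 (adjusted p = 0.068).

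**Figure D3:**
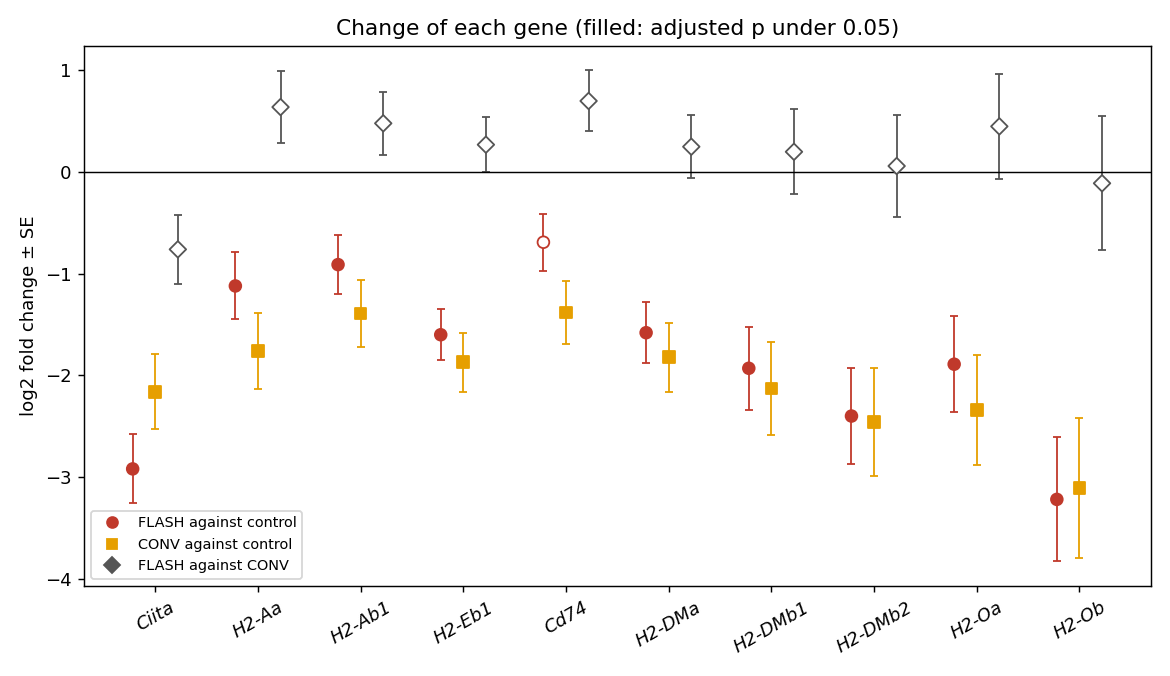
Log2 fold change ± SE of each gene for FLASH against control, CONV against control and FLASH against CONV, with filled symbols where the adjusted p was under 0.05. Ciita lies lower in FLASH than in CONV and H2-Aa, H2-Ab1 and Cd74 lie higher in FLASH, with no filled symbol for FLASH against CONV.

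The ratio of regulator to target was looked at after the values had been seen, so it is given as a description with no test. Ciita amounted to 0.56, 0.463, 3.3, 2.14, 0.903, 1.36 and 1.9% of the H2-Aa CPM in FLASH libraries 1, 2, 4, 5, 6, 7 and 9. In CONV libraries 2, 3, 5, 6 and 7 the share was 1.94, 5.71, 5.9, 2.43 and 3.8%, and in controls 1 to 6 it was 6.02, 7.21, 3.63, 5.69, 6.27 and 2.13%. FLASH libraries lay low, although FLASH 4 and FLASH 5 exceeded control 6. These shares are not corrected for transcript length. Control 6, CONV 6, FLASH 1 and CONV 2 had length slopes of -0.412, -0.433, -0.339 and -0.315. FLASH 2, 6 and 7, whose shares were also low, had -0.0891, 0.119 and 0.27. The part of the length trend in the shares was not tested. On the log2 scale the ratio averaged -6.32 ± 1.03 in FLASH (SD, n = 7), -4.78 ± 0.72 in CONV (n = 5) and -4.38 ± 0.66 in controls (n = 6).

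The log2 ratio of Ciita to H2-Aa differed by -1.94 between FLASH and controls, by -1.54 between FLASH and CONV and by -0.40 between CONV and controls. Of the ratios of Ciita to the other 9 genes, that to Cd74 differed most, by -2.32 between FLASH and controls. Only for Cd74 did the FLASH libraries not overlap the controls. The remaining ratios overlapped, with differences from -2.15 for H2-Ab1 to -0.48 for H2-Ob. With the length and GC offset, the H2-Aa differences were -1.65 for FLASH against controls, -2.08 for FLASH against CONV and 0.43 for CONV against controls, so the last of them changed sign.

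**Figure D4:**
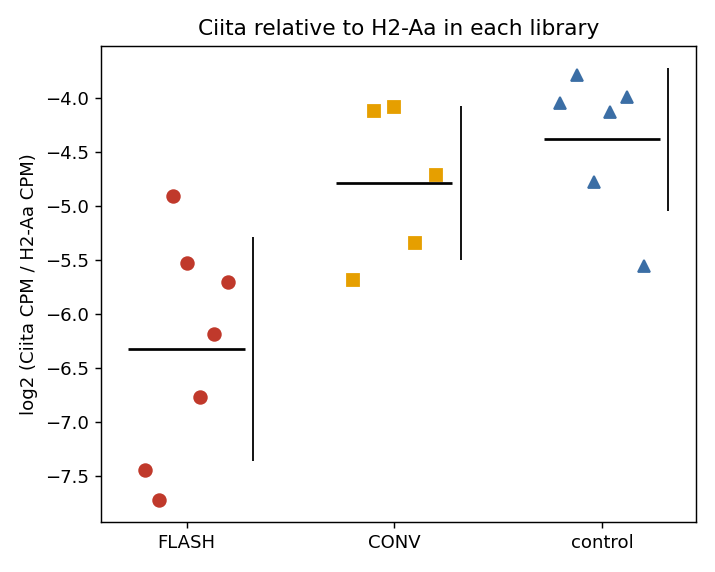
Log2 ratio of Ciita CPM to H2-Aa CPM in each FLASH, CONV and control library, with group means (horizontal bars) and 1 SD either side (vertical lines). The FLASH mean of -6.32 lies below those of CONV (-4.78) and controls (-4.38), and the FLASH libraries spread from 0.463 to 3.3% on the linear scale. The ratios are not corrected for transcript length.

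Of 7 genes for factors that bind class II promoters, 1 changed in FLASH against controls, where 37.7% of all tested genes did. It was Creb1, which fell by 0.42 ± 0.15 (adjusted p = 0.0328). In CONV 0 of 7 passed, also in every leave-one-out fit, beside 22.2% of all tested genes. Whether these counts differ from those shares was not tested, and 7 genes are few. The Creb1 call was lost without any of controls 1, 2 and 5 and FLASH 1, 2, 6 and 9, and with library totals in place of TMM scaling 5 of the 7 fell. Rfx5, an RFX subunit, stood at -0.28 ± 0.20 in FLASH (adjusted p = 0.298) and -0.40 ± 0.22 in CONV (adjusted p = 0.194), and Nfya, an NF-Y subunit, at -0.41 ± 0.20 (adjusted p = 0.112) and 0.09 ± 0.22 (adjusted p = 0.773).

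Interferon-gamma signalling acts upstream of Ciita in many cells. Of its 8 tested genes, 3 fell and 2 rose in FLASH, and 2 fell in CONV. The shares of all tested genes that changed were 37.7% in FLASH (21% fell) and 22.2% in CONV (12% fell). Socs1, a feedback inhibitor that the pathway induces, fell by 1.95 ± 0.30 on the log2 scale in FLASH (adjusted p = 8.67e-05) and by 1.41 ± 0.33 in CONV (adjusted p = 0.007). The receptor chain Ifngr2 rose by 0.67 ± 0.17 in FLASH (adjusted p = 0.00457), and the kinase Jak2 by 0.49 ± 0.13 (adjusted p = 0.00737). The CONV count of 2 was 1 without CONV 2 or CONV 6 and 5 without control 6, and with library totals 3 genes fell and 0 rose in FLASH. Ifng itself, with at most 30 counts in a library, was too scarce to test.

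Among regulators of Ciita in lymphoid and myeloid cells, 2 of 5 tested genes fell in FLASH and 3 of 5 in CONV. Beside them, 21% of all tested genes fell in FLASH and 12% in CONV. Irf4, which acts in B and plasma cells and in some dendritic cells, fell by 1.92 ± 0.28 in FLASH (adjusted p = 3.79e-05) and by 2.41 ± 0.32 in CONV (adjusted p = 6.47e-05). Irf8, a factor of dendritic cells and macrophages, fell by 0.88 ± 0.16 in FLASH (adjusted p = 0.000346) and by 0.50 ± 0.17 in CONV (adjusted p = 0.0469). Prdm1, whose product represses Ciita in plasma cells, was higher in FLASH than in CONV by 1.31 ± 0.30 (adjusted p = 0.00553). Against controls Prdm1 passed in neither group, at 0.59 ± 0.27 in FLASH (adjusted p = 0.0965) and -0.72 ± 0.30 in CONV (adjusted p = 0.0836). The CONV count of 3 was 1 without CONV 6 and 5 without control 6, and the FLASH count of 2 was 4 with library totals, with the length and GC offset or without the 3 libraries of steepest trend.

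Of 8 genes for endosomal processing, 5 rose and 0 fell in FLASH, and 4 rose and 0 fell in CONV. Over all tested genes 37.7% changed in FLASH and 22.2% in CONV, and 44.3 and 46% of those changes were rises. Ctsl, a cathepsin that cuts the invariant chain in thymic epithelium of mice, rose by 1.43 ± 0.18 in FLASH (adjusted p = 1.06e-05) and by 0.90 ± 0.19 in CONV (adjusted p = 0.0033). Lgmn, an endopeptidase, rose by 1.31 ± 0.18 in FLASH (adjusted p = 2.38e-05) and by 0.71 ± 0.19 in CONV (adjusted p = 0.0138). Ctss, the cathepsin that trims the invariant chain in dendritic cells and B cells, rose by 0.39 ± 0.13 in FLASH (adjusted p = 0.0244). Ctsb, another cathepsin, passed in neither comparison (0.17 ± 0.12 in FLASH, adjusted p = 0.29, and 0.12 ± 0.13 in CONV, adjusted p = 0.5), nor did Cst3, an inhibitor of cathepsins (-0.15 ± 0.17 in FLASH, adjusted p = 0.536, and -0.23 ± 0.19 in CONV, adjusted p = 0.37). With library totals the CONV count was 2. These proteases are also made by cells that carry no class II.

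Of 9 genes for turnover and co-stimulation, 1 rose and 4 fell in FLASH, and 1 rose and 2 fell in CONV. Over all tested genes 37.7% changed in FLASH and 22.2% in CONV. Cd80, a ligand of CD28, rose by 1.27 ± 0.29 in FLASH (adjusted p = 0.00201) and by 2.17 ± 0.31 in CONV (adjusted p = 0.000125). Its relative Cd86 fell by 0.81 ± 0.24 in FLASH (adjusted p = 0.0127) and by 0.80 ± 0.27 in CONV (adjusted p = 0.0391). Cd274, which encodes the inhibitory ligand PD-L1, fell by 1.36 ± 0.22 in FLASH (adjusted p = 0.00014) and by 1.05 ± 0.25 in CONV (adjusted p = 0.00641). On the T cell side, 8 of 9 genes for class II receptors and helper T cells fell in FLASH and 9 of 9 in CONV. The shares of all tested genes that fell were 21 and 12%. Cd4, the co-receptor for class II, fell by 1.05 ± 0.26 in FLASH (adjusted p = 0.00385) and by 1.18 ± 0.29 in CONV (adjusted p = 0.00825). The FLASH count of 8 was 5 without any of controls 2 and 5 and FLASH 1, 4 and 6, and 4 without control 3, and it was 5 without controls 1 and 2 together.

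On chromosome 17 the 8 genes other than Ciita and Cd74 span 224.3 kb, interleaved with genes of the class I pathway. Of 7 neighbours in and beside that stretch, 5 fell in FLASH, and 5 fell and 1 rose in CONV. Beside this, 21% of all tested genes fell in FLASH and 12% in CONV. Psmb9, an immunoproteasome subunit that interferon-gamma induces, fell by 2.32 ± 0.37 in FLASH (adjusted p = 0.000118) and by 1.20 ± 0.41 in CONV (adjusted p = 0.0407), and was lower in FLASH than in CONV, with a log2 difference of -1.11 ± 0.38 (adjusted p = 0.046). H2-Eb2, another class II beta gene, fell by 3.11 ± 0.72 in FLASH (adjusted p = 0.00245) and by 3.13 ± 0.82 in CONV (adjusted p = 0.0123). Btnl2, at the far end, rose by 0.69 ± 0.23 in CONV (adjusted p = 0.0375). The CONV count of 6 changed genes was 3 without control 3, control 5 or CONV 5, and 2 without CONV 2 or CONV 6.

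**Figure D5:**
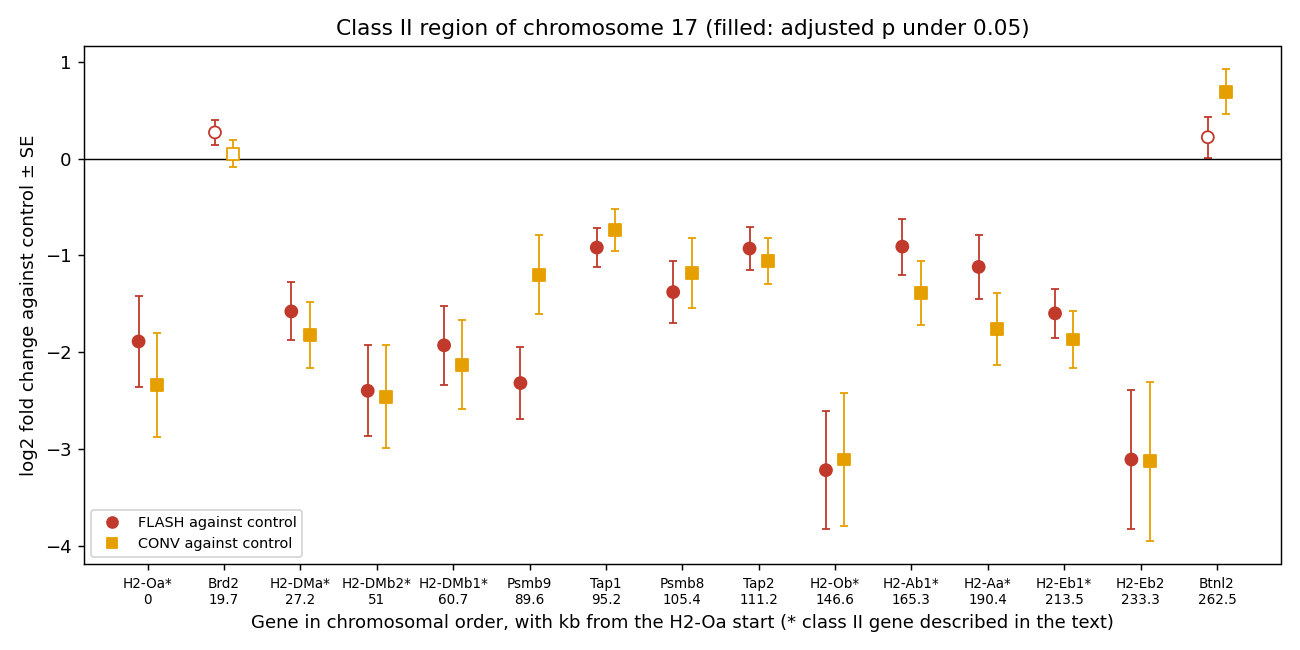
Log2 fold change ± SE against control for FLASH and CONV, for the genes of the class II region in chromosomal order with their distance in kb from the H2-Oa start; filled symbols have an adjusted p under 0.05. The 8 class II genes marked with an asterisk lie below 0 in both comparisons, as do Psmb9, Tap1, Psmb8, Tap2 and H2-Eb2, whereas Brd2 and Btnl2 lie at or above 0.

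Class I presentation showed no shared direction. Of 8 genes, 3 rose and 2 fell in FLASH, and 1 rose and 2 fell in CONV, where 37.7 and 22.2% of all tested genes changed. H2-D1, a classical class I chain, rose by 0.71 ± 0.18 in FLASH (adjusted p = 0.00504) and stood at 0.17 ± 0.19 in CONV (adjusted p = 0.533). Nlrc5, the relative of Ciita that regulates class I genes, fell by 1.85 ± 0.30 in FLASH (adjusted p = 0.000111) and by 2.11 ± 0.34 in CONV (adjusted p = 0.000399).

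Markers of B cells and dendritic cells were lower in the irradiated groups along with these genes, and their part in these changes was not tested. Beside the counts of each marker list, 37.7% of all tested genes changed in FLASH (21% fell) and 22.2% in CONV (12% fell). The sum of 10 B cell markers was 4.18 to 13.6 CPM in FLASH, 4.56 to 20.2 CPM in CONV and 27 to 258 CPM in controls. Of 8 tested B cell markers, 8 fell in FLASH and 6 in CONV, and Fcmr, an immunoglobulin M receptor, was at 0 in 5 FLASH libraries and 2 CONV libraries. The sum of 10 dendritic cell markers was 31.6 to 45.2 CPM in FLASH, 44.6 to 53.3 CPM in CONV and 65.4 to 102 CPM in controls, with no marker at 0, and 7 of 10 fell in FLASH and 5 of 10 in CONV. Naaa made up much of this sum, with a mean of 20.2 CPM in FLASH, 36.1 CPM in CONV and 41 CPM in controls. Between the dose rates, 1 of the 10 dendritic cell markers was higher in FLASH and 2 were lower. Macrophage markers had sums of 387 to 547 CPM in FLASH (median 417), 294 to 341 CPM in CONV (median 322) and 257 to 479 CPM in controls (median 332), with 3 of 10 risen and 3 fallen in FLASH, and 1 risen and 4 fallen in CONV. A large part of the macrophage sum in FLASH is Mertk, with a mean of 183 CPM there, 93.9 CPM in CONV and 48.2 CPM in controls. The sum of 8 enterocyte markers was 34100 to 65800 CPM in FLASH, 37700 to 71800 CPM in CONV and 10900 to 27500 CPM in controls, so epithelial transcripts were abundant in every library. Of these 8 markers, 5 rose and 0 fell in FLASH (median log2 fold change 0.59), and 3 rose and 1 fell in CONV (median 0.08). Much of the sum is Apoa4, an apolipoprotein of enterocytes, with a mean of 31800 CPM in FLASH, 23600 CPM in CONV and 5110 CPM in controls.

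Lists for other cell types also held markers that fell, and their part was likewise not tested. The same shares of all tested genes, 21% fallen in FLASH and 12% in CONV, stand beside these counts. Crypt base markers summed to 73.9 to 153 CPM in FLASH, 68.3 to 163 CPM in CONV and 750 to 1250 CPM in controls, and 6 of 6 fell in FLASH and 4 of 6 in CONV. Plasma cell markers summed to a median and highest of 1330 and 2280 CPM in FLASH and 1170 and 2150 CPM in CONV, with 4980 to 10300 CPM in controls, and 5 of 7 fell in FLASH and 4 of 7 in CONV. For these 2 lists no irradiated library reached a control. Smooth muscle markers summed to 347 to 1130 CPM in FLASH, 152 to 1040 CPM in CONV and 1110 to 3260 CPM in controls, with 6 of 6 fallen in FLASH and 3 of 6 in CONV. Stromal cell markers summed to 149 to 259 CPM in FLASH, 90.8 to 283 CPM in CONV and 215 to 867 CPM in controls, with 3 of 5 fallen in FLASH and 2 of 5 in CONV. Of 9 markers of T cells and intraepithelial lymphocytes, 6 fell in FLASH and 6 in CONV, while of 6 endothelial markers 0 fell in FLASH and 1 in CONV.

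The genes outside these lists whose deviations from their group means were most like the mean deviation of the 10 were Cxcl5 (Pearson r = 0.89 over 18 libraries), Il2rb (0.81), Bcdin3d (0.79), Fxyd2 (0.78), H2-Q7 (0.78), Lat (0.76), Podnl1 (0.74) and Cmtm7 (0.74). H2-Eb1 had 0.86, H2-Aa 0.76, H2-Ob 0.38 and Ciita 0.12, but each of these is part of the mean it was set against. Cxcl5 was scarce, with a mean of 0.377 CPM in FLASH, 0.606 CPM in CONV and 0.984 CPM in controls. The 8 outside genes were picked as the highest values among named protein-coding genes. Of these 8, 6 fell in FLASH, 5 fell in CONV and 0 rose in either, beside the 21 and 12% of all tested genes that fell. Il2rb, an interleukin receptor chain of lymphocytes, fell by 0.99 ± 0.25 in FLASH (adjusted p = 0.0046) and by 1.88 ± 0.29 in CONV (adjusted p = 0.000273). Bcdin3d stood at 0.05 ± 0.17 in FLASH (adjusted p = 0.83) and -0.01 ± 0.18 in CONV (adjusted p = 0.983).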

How the data were processed

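RNA of whole jejunum from 18 libraries was prepared with a stranded mRNA kit and read as single ends of 100 bases. The submitters' processing notes name STAR, Salmon, edgeR 3.40.2, limma 3.54.2 and mm10, with no roles given. The deposited table of estimated counts per Ensembl gene (unscaled; 73.3 to 76.9% of nonzero values whole) was rounded before use, and totals were 23.1 to 30.2 M in FLASH, 19.9 to 27.0 M in CONV and 24.3 to 27.8 M in controls. The deposited log2 values, normalized by the authors for 19193 genes, served only for limma-trend. Symbols and coordinates came from GENCODE M21; 37 IDs without a symbol held 0.00183% of counts.

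The test was edgeR 4.0.16 quasi-likelihood (R 4.3.3) on all 18 libraries in 1 fit, with filterByExpr, TMM factors and robust dispersion. Standard errors divide the size of each log2 fold change by the root of its F statistic. CPM use TMM-scaled library sizes, and log2 CPM a prior count of 2. Alternatives included DESeq2 1.42.0, limma 3.58.1 (voom and trend), other scalings and filters, a spline offset with 4 degrees of freedom for length and GC content, a replicate block and each library left out. The genes and lists were chosen with earlier results of these data known. Named were all 10 genes, up to 3 genes of each list with the smallest p among those past the threshold, others whose role is described, and the 8 most alike genes; some items of the lists are not reported here. On simulated data the test recovered 38% of 2-fold and 79% of 4-fold changes in FLASH against control (15995 genes), 29 and 79% in CONV against control (15987 genes) and 34 and 78% in FLASH against CONV (16004 genes), with 5.65, 7.69 and 3.45% false calls. No libraries were duplicates (lowest chi-square per degree of freedom 24.4). Figures were drawn with matplotlib 3.10.9 in Python 3.11.15.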

Additional observations from a re-analysis of the deposited data

Results flagged for a closer look

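A sample far from the others of its group was found in 3 of 30 gene and group combinations examined, where chance flags about 1 in 20. All were control 2. It had 28.5 CPM of H2-DMb2, where the next control had 8.69 CPM (gap over range 0.79, critical value 0.625). It had 6.59 CPM of H2-Oa, where the next had 2.28 CPM (0.75), and 16.9 CPM of H2-Ob, where the next had 6.07 CPM (0.69). Control 2 also had the highest sum of B cell markers, 258 CPM, and the part of these markers in the 3 values was not tested. The 3 flags are not independent, because they come from 1 library in genes that correlated at 0.74 to 0.95 within groups. Their number therefore cannot be weighed against 1 in 20. The rule was applied to CPM and not to log2 CPM.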

How the results depend on the processing

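Against controls, all 10 genes kept their direction under every alternative run. In CONV they also kept their calls in all 180 values with 1 library left out and all 140 under other alternatives; in FLASH 175 of 180 and 129 of 140 kept them. In FLASH against control, the count of 9 was 8 to 10 with 1 library left out and 7 to 10 otherwise: H2-Ab1 was lost with limma-trend (adjusted p = 0.0545) and without the 3 libraries of steepest length trend (0.0721), while Cd74 passed with library totals, the length and GC offset, only the compared groups, or without controls 1 and 2. Replicate numbers gave no clear pairing of the libraries: 5 of 13 same-number pairs had correlated deviations over 0.1 (range -0.53 to 0.82). The highest was control 6 with CONV 6, both among the libraries of steepest length trend. Pairs with different numbers were not set beside them, and the labels do not say what the numbers mean, so pairing was not settled. With the replicate block, 1569 genes passed in FLASH against CONV, against 3217 without it, and in FLASH against control H2-Aa (-1.07, adjusted p = 0.0623) and H2-Ab1 (-0.86, adjusted p = 0.0999) were lost. At an adjusted p of 0.01, 3734 genes passed in FLASH against control (6135 at 0.05), 1351 in CONV against control (3615) and 1261 in FLASH against CONV. In CONV against control, 1869 (without CONV 6) to 6493 (without control 6) genes passed with 1 library left out, and 1452 without controls 1 and 2. In FLASH against CONV, 3 of the 10 genes passed with the length and GC offset, which also turned the ratio of Ciita to H2-Aa in CONV against control to 0.43. Small differences between the dose rates changed sign: H2-DMb2 was -0.14 with library totals, -0.23 without the 3 libraries and -0.13 to 0.22 with 1 left out; H2-DMb1 was -0.02 without the 3 libraries and -0.00064 to 0.73 with 1 left out; H2-Ob was 0.0029 with limma-trend, 0.0089 with the block and -0.32 to 0.22 with 1 left out. The cause was not tested. Library totals in place of TMM shifted the all-gene median of log2 fold changes to -0.44 in FLASH against control, -0.25 in CONV against control and -0.18 in FLASH against CONV, and the share of calls that were higher to 17.4, 24.2 and 24.4%, against 44.3, 46 and 49.9% with TMM. Depth limits H2-Oa, with as few as 7 counts in a library, and H2-Ob, with 5.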
